A study of Mus musculus with 9 samples.

Results

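A set of 10 chemokine ligands was followed in regenerating mouse liver: Cxcl1, Cxcl2, Cxcl9, Cxcl10, Cxcl12, Ccl2, Ccl3, Ccl4, Ccl5 and Ccl7. Their probes were found by gene symbol in the platform annotation, which gave 18 probes for the 10 genes among 45281 probes on the array. Of these, 13 probes passed the detection filter (called detected, at a p under 0.05, on 4 arrays or more), and they covered 9 of the 10 genes. Ccl3 did not pass, so it is given as values without a place in the fit over 11559 features. The livers were taken 12 h after partial hepatectomy (PHx), the surgical removal of part of the liver, from C57BL/6 mice, as 9 samples with 1 Illumina bead array each. Mice of genotype WT gave the 4 control livers (control 1 to control 4), with the treatment label Control. The 5 etanercept livers (etanercept 1 to etanercept 5) came from mice of genotype LTRβ-/-, that is, without the lymphotoxin β receptor, which were given etanercept 24 h before the operation. Genotype and drug differ together between the groups, no unoperated liver was among the samples, and the sources used here do not say what the control mice were given. The replicate numbers only name the samples, and since the labels do not say that each came from a separate animal, p-values measure the spread between these samples. RNA came from whole liver tissue, so fewer cells of a type and less RNA per cell cannot be told apart.

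Chemokines are small secreted proteins that guide leukocytes along concentration gradients. Tumour necrosis factor (TNF) and lymphotoxins act through receptors that activate NF-κB, a transcription factor that binds κB elements in the promoters of many inflammatory chemokine genes. Etanercept is a soluble TNF receptor fusion protein that binds TNF. In liver, Kupffer cells, sinusoidal endothelium, stellate cells and hepatocytes can all make chemokines after injury, and the arriving neutrophils and monocytes take part in the early phase of regrowth. The comparison addresses whether these ligand transcripts differ early in regeneration when the TNF and lymphotoxin β receptor routes are both blocked.

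Promoter sequences (250 bases before to 50 bases after the gene start, RefSeq, GRCm38.p6) were held for 6 of the 10 genes: Cxcl1, Cxcl2, Cxcl9, Cxcl10, Cxcl12 and Ccl3. A κB motif, searched as GGNNNTTCC on both strands, was found in 4 of the 6 (Cxcl1, Cxcl2, Cxcl9 and Cxcl10) and in 18.5% of all 32851 promoters of the table. An interferon-stimulated response element, searched as GAAANNGAA on both strands, was found in 3 of the 6 (Cxcl9, Cxcl10 and Ccl3) and in 8.56% of all promoters. The κB and response element matches of these genes do not overlap each other. Cxcl1 and Cxcl2 are shown because these direct neighbours carry like κB motifs, and Cxcl10 because it holds both kinds of motif. Each is printed 5′ to 3′ on the strand of its gene, with the motif matches in capitals. Cxcl1 is chr5:90890995-90891294 (plus strand), Cxcl2 is chr5:90903649-90903948 (plus strand) and Cxcl10 is chr5:92348840-92349139 (minus strand).
Cxcl1: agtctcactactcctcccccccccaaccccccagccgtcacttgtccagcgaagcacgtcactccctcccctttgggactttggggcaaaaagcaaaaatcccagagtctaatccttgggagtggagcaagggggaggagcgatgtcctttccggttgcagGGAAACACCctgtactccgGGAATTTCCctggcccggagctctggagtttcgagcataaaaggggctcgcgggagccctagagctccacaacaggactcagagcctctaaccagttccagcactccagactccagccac
Cxcl2: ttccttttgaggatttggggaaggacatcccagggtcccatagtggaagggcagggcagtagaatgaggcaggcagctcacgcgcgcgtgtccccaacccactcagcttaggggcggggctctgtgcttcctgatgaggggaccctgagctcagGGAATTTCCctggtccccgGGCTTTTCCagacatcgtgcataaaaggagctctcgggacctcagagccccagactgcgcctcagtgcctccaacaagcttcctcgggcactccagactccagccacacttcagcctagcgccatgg
Cxcl10: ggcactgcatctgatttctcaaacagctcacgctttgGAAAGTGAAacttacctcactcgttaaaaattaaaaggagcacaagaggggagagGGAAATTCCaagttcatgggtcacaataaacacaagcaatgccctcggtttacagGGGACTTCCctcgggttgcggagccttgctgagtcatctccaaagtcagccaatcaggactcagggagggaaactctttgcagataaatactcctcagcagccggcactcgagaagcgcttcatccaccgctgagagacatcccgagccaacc
In Cxcl1 the matches begin 89 bases (on the opposite strand) and 70 bases before the start, and in Cxcl2 96 and 77 bases before it. In Cxcl10 the κB matches begin 158 and 103 bases and the response element 213 bases before it. The letters GGAATTTCC, which match on both strands, occur in both Cxcl1 and Cxcl2. A match describes the letters only, and an absent match says nothing about binding.

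The mean signal per array ranged from 336 to 438 intensity units, except on etanercept 4 with 143, where 9493 probes were detected against 13926 to 16186 on the others. All 10 hepatocyte markers were tested and their mean log2 level after normalization lay between 12.01 and 12.30 on every array. Quantile normalization gives every array the same distribution, so this level checks neither the arrays nor hepatocyte content. The Ltbr probe had a mean log2 signal of 5.93 ± 0.71 (SD, n = 5) in the etanercept livers and 6.70 ± 0.30 (SD, n = 4) in the controls; whether it lies in the deleted part is not given in the sources used here, so it checks no label. Values below are log2 normalized signals, differences are etanercept minus control, and the number of arrays limits their precision: the median standard error of a difference over all features was 0.31.

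No ligand passed the threshold. By limma, 0 of the 9 tested ligands had an adjusted p under 0.05, against 0.00865% of all features. At an unadjusted limma p under 0.05 there were 2 of 9, Cxcl2 higher and Cxcl12 lower in the etanercept livers, against 4.09% of all features (1.64% higher and 2.45% lower). The same 2 were under 0.05 in the exact permutation test over the arrays (two-sided, 126 splits, smallest possible p 0.0159). Cxcl2 passed the detection filter through the etanercept livers, where it read higher, so its place in this count supports nothing by itself. The ligands were also chosen with earlier results of these data known, so the shares here and below are description only. The groups overlapped for all 9, while 0.796% of all features had groups that did not overlap. Mean differences were positive for 4 ligands and negative for 5, where 52.4% of all features were negative, and their median was -0.25 beside -0.02 over all features.

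**Figure D1:**
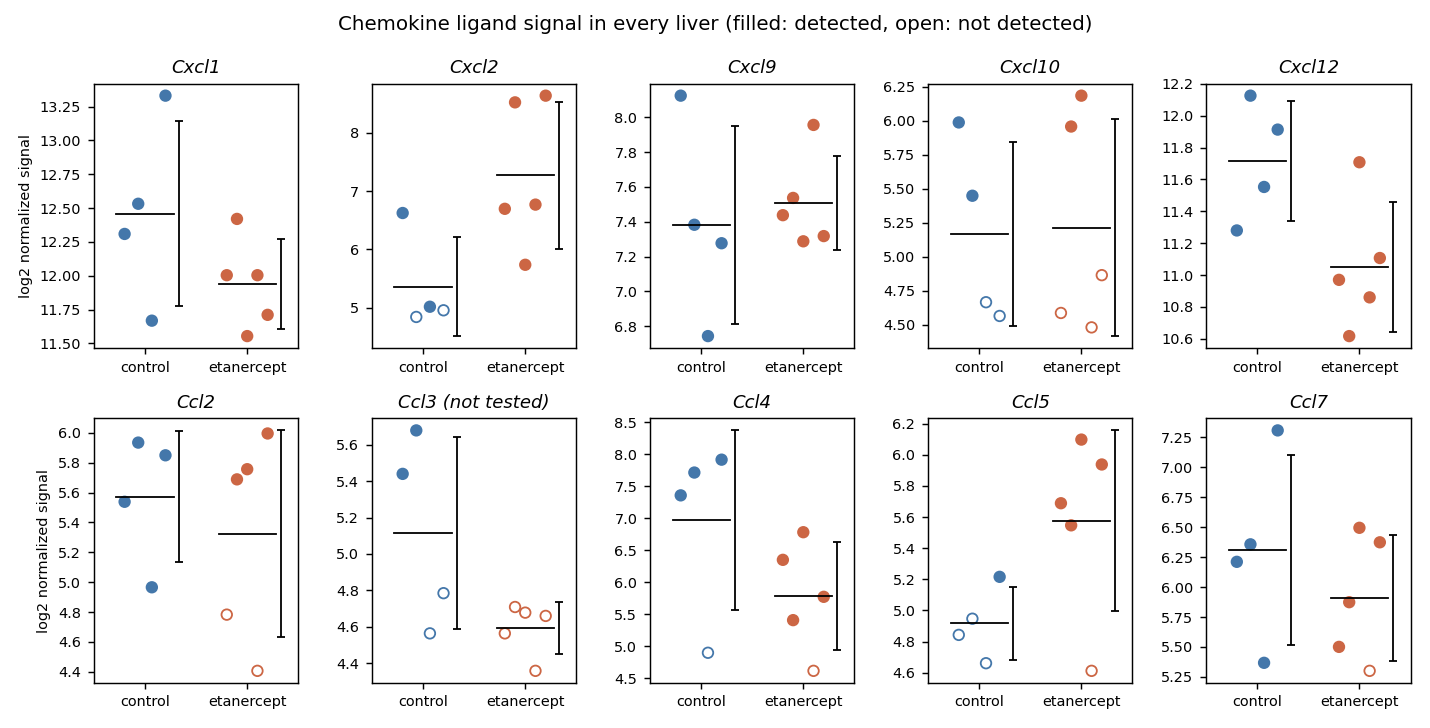
Log2 normalized signal (y axis) of the probe used for each ligand in every liver, by group (x axis: 4 control, 5 etanercept). Points are livers, filled where the detection p was under 0.05 and open where it was not; lines are group means and bars are SD. Cxcl2 and Ccl5 have 4 of 5 etanercept livers above all controls, Cxcl12 has 4 of 5 below all controls, and the groups of every tested ligand overlap.

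**Figure D2:**
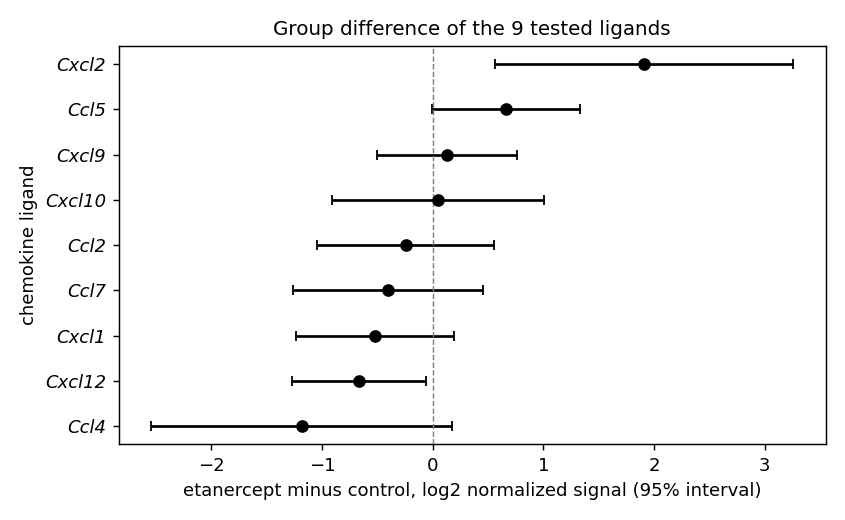
Difference between the group means (x axis, etanercept minus control, log2 normalized signal) for the 9 tested ligands (y axis), with 95% intervals from limma. The intervals of Cxcl2 and Cxcl12 lie on 1 side of 0 before adjustment, and none of the 9 passed after it.

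Cxcl1 and Cxcl2 encode the CXC chemokines that draw neutrophils through the receptor CXCR2. Cxcl1 (Entrez gene 14825) was detected on all 9 arrays. It read 12.31, 12.53, 11.67 and 13.33 in control 1 to 4 and 12.00, 12.42, 11.55, 12.00 and 11.71 in etanercept 1 to 5. Control 4 was the highest liver of all, and 1 etanercept liver lay below every control. The means were 12.46 ± 0.69 (SD, n = 4) and 11.94 ± 0.33 (SD, n = 5), a difference of -0.52 ± 0.33 (SE) with a 95% interval from -1.24 to 0.20 (limma adjusted p = 0.931, exact permutation p = 0.190). Without control 4 the difference was -0.23.

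Cxcl2 (Entrez gene 20310), its direct neighbour on chromosome 5, had a mean difference of the opposite sign, and neither passed the threshold. It read 6.62, 4.84, 5.02 and 4.96 in control 1 to 4 and 6.70, 8.52, 5.74, 6.77 and 8.63 in etanercept 1 to 5. It was detected in 2 of 4 controls (control 1 and control 3) and in 5 of 5 etanercept livers. Of the etanercept livers 4 lay above every control, and etanercept 3 lay below control 1. Since the etanercept livers alone carried the probe past the detection filter and 2 controls were not detected, no fold is given and the difference supports nothing by itself. The means were 5.36 ± 0.85 (SD, n = 4) and 7.27 ± 1.26 (SD, n = 5), a difference of 1.91 ± 0.61 (SE) with a 95% interval from 0.56 to 3.26 (limma adjusted p = 0.931, exact permutation p = 0.0317). The highest values were those of etanercept 2 and etanercept 5, the livers of surgery day 4, a day with no control; without them the difference was 0.99 (limma adjusted p = 0.799). The other Cxcl2 probe past the filter differed by 0.89 ± 0.55 (SE), and its highest values, 7.47 and 6.47, came from the same livers.

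Cxcl9 and Cxcl10 are the interferon-induced ligands of CXCR3, a receptor of activated T and NK cells. Cxcl9 (Entrez gene 17329) was detected on all arrays and read 8.12, 7.38, 6.74 and 7.28 in control 1 to 4 and 7.44, 7.54, 7.29, 7.96 and 7.32 in etanercept 1 to 5. All 5 etanercept livers fell inside the control range, and the means were 7.38 ± 0.57 (SD, n = 4) and 7.51 ± 0.27 (SD, n = 5). The difference was 0.13 ± 0.29 (SE), with a 95% interval from -0.51 to 0.76 (limma adjusted p = 0.951). Cxcl10 (Entrez gene 15945) was detected on 4 of 9 arrays by the probe used, in control 1, control 2, etanercept 2 and etanercept 3. It read 5.99, 5.45, 4.67 and 4.57 in the controls and 4.59, 5.96, 6.18, 4.48 and 4.87 in the etanercept livers, so that each group held both detected and undetected livers. The means were 5.17 ± 0.67 (SD, n = 4) and 5.22 ± 0.80 (SD, n = 5). The difference was 0.05 ± 0.44 (SE), with a 95% interval from -0.91 to 1.01 (limma adjusted p = 0.986), which is wide in both directions. The other Cxcl10 probe was detected in 1 liver of each group and was not tested.

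Cxcl12 encodes the homeostatic ligand of CXCR4, made by stromal and endothelial cells, and is known as a target of the alternative NF-κB pathway downstream of the lymphotoxin β receptor. Its strongest probe (Entrez gene 20315) read 11.28, 12.13, 11.55 and 11.91 in control 1 to 4 and 10.97, 10.62, 11.71, 10.86 and 11.11 in etanercept 1 to 5. Etanercept 3 was the exception among the etanercept livers, and the other 4 lay below every control. The means were 11.72 ± 0.38 (SD, n = 4) and 11.05 ± 0.41 (SD, n = 5), a difference of -0.67 ± 0.28 (SE), with a 95% interval from -1.27 to -0.06 (limma adjusted p = 0.931, exact permutation p = 0.0476). The probes for other Cxcl12 transcripts were much weaker: 2 more passed the filter and differed by -0.35 ± 0.36 (SE) and 0.18 ± 0.44 (SE). The positive one read 7.50 on etanercept 4, the array of low signal. It read 5.24 to 5.94 in the other etanercept livers and 5.34 to 6.23 in the controls, so its sign rests on that array. The remaining 2 probes were detected on no array. With the mean of the tested probes in place of the strongest one, Cxcl12 differed by -0.28, a mean that takes in the etanercept 4 value of 7.50.

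Ccl2 and Ccl7 are neighbours on chromosome 11 and encode monocyte attractants that act through CCR2. Ccl2 (Entrez gene 20296) read 5.54, 5.93, 4.97 and 5.85 in control 1 to 4 and 4.78, 5.69, 5.76, 4.41 and 5.99 in etanercept 1 to 5. It was detected in 4 of 4 controls and 3 of 5 etanercept livers, the exceptions being etanercept 1 and the dim etanercept 4. With means of 5.57 ± 0.44 (SD, n = 4) and 5.33 ± 0.69 (SD, n = 5), the difference was -0.25 ± 0.36 (SE), with a 95% interval from -1.04 to 0.55 (limma adjusted p = 0.939). It was -0.02 without etanercept 4. Ccl7 (Entrez gene 20306) read 6.21, 6.36, 5.37 and 7.31 in control 1 to 4 and 5.50, 5.87, 6.49, 5.30 and 6.37 in etanercept 1 to 5. The means were 6.31 ± 0.79 (SD, n = 4) and 5.91 ± 0.52 (SD, n = 5), and the 95% interval of the difference ran from -1.26 to 0.46. Control 4 was the highest liver, and without it the difference moved from -0.40 ± 0.39 (SE; limma adjusted p = 0.931) to -0.07. The other Ccl7 probe differed by -0.53 ± 0.36 (SE).

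Ccl3, Ccl4 and Ccl5 encode inflammatory CC chemokines that attract leukocytes, and lie close together on chromosome 11. Ccl4 (Entrez gene 20303) read 7.36, 7.71, 4.90 and 7.91 in control 1 to 4 and 6.35, 5.41, 6.78, 4.62 and 5.77 in etanercept 1 to 5. Of the controls 3 lay above every etanercept liver, while control 3 was not detected and read lower than 4 of the 5. The means were 6.97 ± 1.40 (SD, n = 4) and 5.79 ± 0.84 (SD, n = 5), a difference of -1.18 ± 0.62 (SE), with a 95% interval from -2.54 to 0.18 (limma adjusted p = 0.931, exact permutation p = 0.143). Without control 3 it was -1.88 (limma adjusted p = 0.988). The other Ccl4 probe was detected on no array.

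Ccl3 (Entrez gene 20302), the direct neighbour of Ccl4, was detected in control 1 and control 2 and in 0 of 5 etanercept livers. It read 5.44, 5.68, 4.56 and 4.78 in control 1 to 4 and between 4.36 and 4.71 in the etanercept livers, where it was not detected, so no fold is given. Ccl5 (Entrez gene 20304), a product of T cells, NK cells and macrophages, pointed the other way. It read 4.84, 4.95, 4.66 and 5.22 in control 1 to 4 and 5.69, 5.55, 6.10, 4.61 and 5.94 in etanercept 1 to 5, and was detected in 1 of 4 controls and 4 of 5 etanercept livers. The dim etanercept 4 was the exception and lay below every control. With means of 4.92 ± 0.23 (SD, n = 4) and 5.58 ± 0.58 (SD, n = 5), the difference was 0.66 ± 0.30 (SE), with a 95% interval from -0.01 to 1.33 (limma adjusted p = 0.931), and 0.95 without etanercept 4 (limma adjusted p = 0.693). Ccl5 passed the detection filter through the etanercept livers, where it read higher, and was left out by the stricter filter (detection p under 0.01), so this difference supports nothing by itself.

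Surgery day and slide cut across the groups. Days 1, 2 and 5 each held 1 control and 1 etanercept liver, day 3 a control alone and day 4 etanercept livers alone. The livers of each such pair were on different slides. The etanercept liver was on slide 1 for day 1 and on slide 2 for days 2 and 5. Each difference within a day therefore also holds a slide difference. Cxcl1 was lower in the etanercept liver on each of the 3 days, by -1.33, -0.53 and -0.75 on days 1, 2 and 5. Ccl4 was lower on each as well, with differences of -1.56, -3.09 and -0.57, where the day 2 value sets the dim etanercept 4 against control 2. Cxcl2 differed by 1.74 and 1.92 on days 1 and 2 but by -0.89 on day 5, and Cxcl12 by -0.94 and -1.27 but by 0.43 on day 5. Ccl2 (-1.07, -1.53 and 0.22) and Ccl7 (-1.81, -1.06 and 0.28) turned on day 5 too. Ccl5 turned on day 2 (0.47, -0.33 and 1.26 on days 1, 2 and 5), but it was detected in neither liver of that day, so the turn compares background values. Every day 2 difference uses the dim etanercept 4. Ccl2, Ccl4, Ccl5, Ccl7 and Cxcl10 were not detected there, so their day 2 differences are set in part by background. Cxcl9 (0.16, 0.57 and -0.84) and Cxcl10 (0.02, -0.97 and 0.20) had no common sign.

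With surgery day as a block, 0 of the 9 ligands and 0% of all features passed (limma). Days 3 and 4 each held 1 group only, so the differences in this fit rest on the pairs of days 1, 2 and 5 given above. They are no further evidence beside those pairs. At an unadjusted p under 0.05 there were 2 ligands, Cxcl1 (-0.87 ± 0.36, SE) and Ccl4 (-1.74 ± 0.50, SE), against 1.51% of all features, each with a limma adjusted p of 0.948. Cxcl2 came to 0.93 ± 0.57 (SE) in that fit and Cxcl12 to -0.59 ± 0.42 (SE). Ccl2 and Ccl7 came to -0.79 and -0.86 and Ccl5 to 0.46, with the dim etanercept 4 in the day 2 pair of each. Within slide 1 and slide 2, 7 of the 9 ligands had the same sign on both slides as over all arrays. Among them were Cxcl2 at 1.87 and 2.06, Cxcl12 at -0.91 and -0.51 and Ccl4 at -1.65 and -0.68. Cxcl9 and Cxcl10 were negative on slide 1 and positive on slide 2. The difference over all arrays pools the same livers, so equal signs are partly built in. The share of all features with equal signs was not counted.

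**Figure D3:**
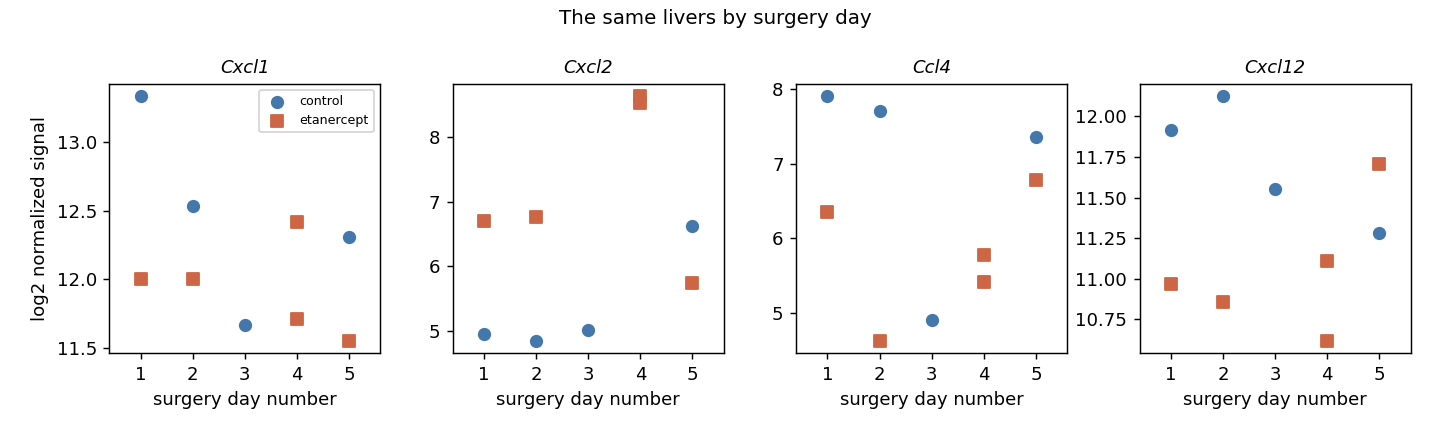
Log2 normalized signal (y axis) of Cxcl1, Cxcl2, Ccl4 and Cxcl12 against the surgery day number of the labels (x axis, a name and not an interval); circles are control and squares are etanercept livers. On days 1, 2 and 5, which hold a liver of each group, Cxcl1 and Ccl4 are lower in the etanercept liver each time, while Cxcl2 and Cxcl12 change order on day 5; both day 4 livers carry the highest Cxcl2 values.

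The authors also deposited values they normalized themselves, in which the standard errors of the ligand differences were smaller. In these deposited values, on the same probes, 3 of the 9 ligands passed in limma, all lower in the etanercept livers, against 9.27% of all features (5.85% lower and 3.43% higher). Their groups did not overlap, as held for 13.6% of all features, 8.88% on the lower side. Differences were negative for 6 of the 9 ligands and for 51.9% of all features. Ccl4 read 7.73, 8.25, 7.84 and 8.06 in control 1 to 4 and 7.11, 7.08, 7.44, 6.92 and 7.24 in etanercept 1 to 5, a difference of -0.81 ± 0.13 (SE; limma adjusted p = 0.0103). Control 3, undetected and lowest among the controls in the non-normalized signals, stood with the other controls there. Ccl7 differed by -0.40 ± 0.08 (SE; limma adjusted p = 0.0236) and Cxcl1 by -0.72 ± 0.18 (SE; limma adjusted p = 0.0417). Ccl3, outside this fit, read between 6.976 and 7.105 in the controls and between 6.693 and 6.822 in the etanercept livers, with no overlap (exact permutation p = 0.0159, the smallest possible). In the values normalized here its groups overlapped (exact permutation p = 0.111), and its probe was detected in 2 controls and 0 etanercept livers. Permuting these arrays also does not count the removal of surgery day described below, so the smaller p supports nothing by itself.

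Cxcl12 (-0.68 ± 0.19, SE), Ccl2 (-0.25 ± 0.08, SE) and Cxcl2 (0.45 ± 0.14, SE) did not pass in the authors' values (limma adjusted p = 0.0596, 0.0871 and 0.0774). The Cxcl2 difference was 0.45 against 1.91 in the values normalized here, and its groups overlapped there too. In the authors' values hardly any difference between surgery days was left: the median absolute coefficient of days 2, 4 and 5 against day 1 was at most 3.33e-06 and that of day 3 was 0.0704, against 0.26 to 0.47 in the values normalized here. A fit without a day term does not count the degrees of freedom used for that removal. With surgery day as a block in the authors' values, 0 of the 9 ligands passed in limma (adjusted p from 0.780 to 0.969), and 0% of all features, with Ccl4 at -0.86, Cxcl1 at -0.82 and Ccl7 at -0.44. The differences in that fit rest again on the pairs of days 1, 2 and 5.

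**Figure D4:**
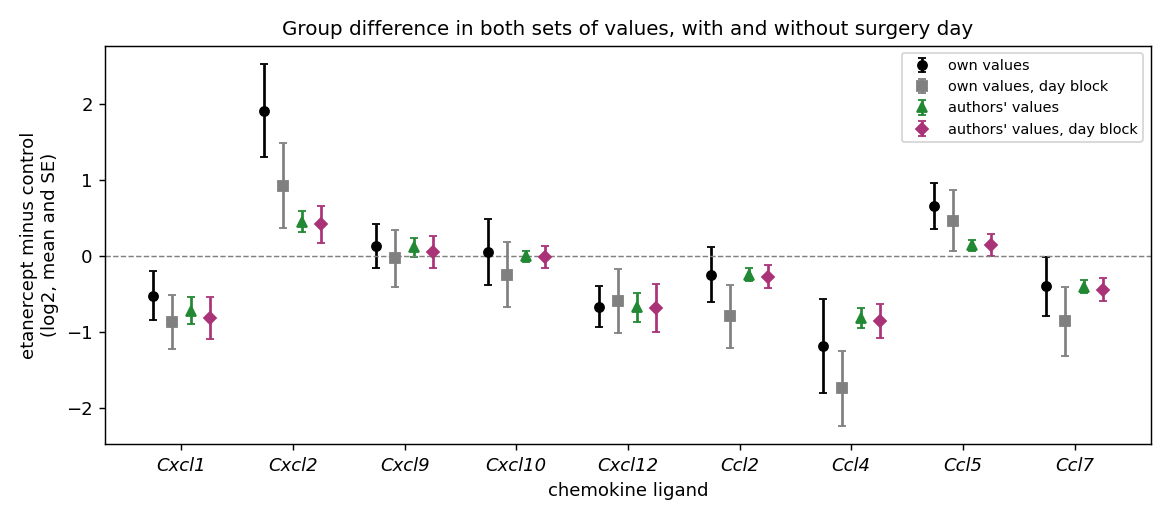
Difference between the groups (y axis, etanercept minus control, log2; bars are SE from limma) for the 9 tested ligands (x axis) in the values normalized here and in the authors' deposited values, each without and with surgery day as a block. Cxcl1, Cxcl12, Ccl2, Ccl4 and Ccl7 are negative in all 4 fits and Cxcl2 and Ccl5 positive in all 4; the Cxcl2 difference shrinks from 1.91 to 0.45 between the normalizations.

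Among the other chemokine ligands, 12 of 30 listed genes were tested, and 9 of the 12 had a positive difference, with a median of 0.34 beside -0.02 over all features; 0 passed in limma and 2 were higher at an unadjusted p under 0.05, against 1.64% of all features. These were the platelet chemokine Ppbp (0.87 ± 0.28, SE; limma adjusted p = 0.931) and the macrophage chemokine Ccl6 (0.68 ± 0.29, SE; limma adjusted p = 0.931). Ccl9, which lies between Ccl5 and Ccl3 on chromosome 11, differed by 0.45 ± 0.22 (SE), while Ccl3 and Ccl4 had negative differences. Of 23 chemokine receptors, 4 were tested, 0 passed and their median was -0.01. Cxcr2, Cxcr3, Cxcr4 and Ccr2, the receptors of most ligands described here, did not pass the detection filter. Ackr4, a scavenger of homeostatic CC chemokines, differed by -1.42 ± 0.71 (SE). It was detected on 8 of 9 arrays and read 7.57 to 9.12 in the controls and 4.65 to 8.96 in the etanercept livers, the lowest of these near background.

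Upstream genes gave no call either. Of 25 genes of TNF, lymphotoxin and NF-κB signalling, 16 were tested, 7 higher and 9 lower, with a median of -0.13 and 0 past the threshold in limma; Tnf, Lta and Ltb were not tested. Nfkbib, an NF-κB inhibitor, differed by 1.01 ± 0.49 (SE) and Nfkbiz, an NF-κB cofactor, by -0.51 ± 0.33 (SE). Of 18 other inflammatory genes known as NF-κB targets, 11 were tested, with a median of -0.08 and 0 past the threshold; the adhesion molecule gene Vcam1 differed by 0.82 ± 0.26 (SE) and Il1b by -0.72 ± 0.42 (SE). Of 16 interferon pathway genes that act ahead of Cxcl9 and Cxcl10, 12 were tested and 9 were lower, with a median of -0.32 and 0 past the threshold. Stat2 (-0.65 ± 0.25, SE) and Irf9 (-1.13 ± 0.45, SE) led that list, while Cxcl9 and Cxcl10 themselves differed by 0.13 and 0.05.

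Markers of cells that make or follow these ligands are given beside them, and their part in the ligand values was not tested. All 10 tested Kupffer cell markers (of 11) had a positive difference, with a median of 0.52, and 0 passed in limma. Their mean log2 level lay between 7.70 and 8.51 in the controls and between 8.40 and 8.95 in the etanercept livers. The scavenger receptor gene Marco, at 1.10 ± 0.35 (SE), was the 1 marker of that list whose groups did not overlap, as held for 0.329% of all features on the higher side. All 6 tested neutrophil markers (of 13) had a positive difference too, with a median of 0.34, but the group ranges of their mean level overlapped widely (6.08 to 7.03 and 6.17 to 7.24), and Ly6g, Mpo, Camp, Ltf and Cxcr2 were among the 7 not tested.

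Monocyte markers (6 of 10 tested, 4 higher) had a median of 0.43, led by Chil3 (0.94 ± 0.35, SE) and Lyz2 (1.21 ± 0.49, SE), and a mean log2 level from 6.18 to 6.80 in the controls and from 6.72 to 7.30 in the etanercept livers; Ccr2, Ly6c2, Itgam and F13a1 were not tested. Only 2 of 14 T and NK cell markers were tested, Cd3e and Prf1, with differences of 0.17 and 0.23. Stellate cell markers (11 of 11 tested, 8 lower) had a median of -0.24, with Lrat at -1.01 ± 0.36 (SE). Lrat was detected on 5 arrays only. It read 5.84 to 6.24 in the controls and 4.45 to 6.32 in the etanercept livers, the lowest of these near background. The Lrat difference therefore supports nothing by itself. Sinusoidal endothelial markers (10 of 10 tested, 6 higher) had a median of 0.10. The mean log2 level of the stellate markers ran from 7.56 to 7.84 in the controls and from 7.14 to 7.75 in the etanercept livers, and that of the endothelial markers from 7.88 to 8.20 and from 8.06 to 8.43. None of these lists had a member past the threshold in limma.

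How the ligands varied together across the 9 livers is given as a description only, since the arrays share normalization and group. Pearson's r was 0.82 for Ccl2 with Ccl7 and 0.80 for Ccl4 with Ccl7, and 0.78 and 0.74 without the dim etanercept 4. The pair farthest from 0 was Cxcl2 with Cxcl12, at -0.84, and -0.87 without etanercept 4. For the neighbours Cxcl1 and Cxcl2 it was -0.27. Of the 36 ligand pairs, 8 had r above 0.5 and 11 were negative. The gene most like Cxcl2 among those with a symbol was Spag9 (r = 0.98, n = 9), and the gene most like Cxcl12 was Lonp2 (r = 0.99, n = 9). For Ccl4 it was Foxk2 (r = 0.96, n = 9) and for Cxcl1 it was Stimate (r = 0.94, n = 9). Each is the highest r in a search of the 9319 tested genes with a symbol. A value picked this way over 9 arrays is high by selection and supports nothing by itself.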

How the data were processed

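Biotin-labelled cRNA from total liver RNA (TRIzol) was hybridized to Illumina bead arrays, per the labels' protocols. The deposited non-normalized file gives, per the file headers, raw intensities per probe, each with a detection p-value. The deposited normalized table came from Partek (version not stated), per the submitters' processing notes; from their range its values are on a log2 scale, and how the authors scaled them is not given in the sources used here.

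Intensities went through limma's neqc, which corrects background, normalizes by quantiles and takes log2 (offset 16, negative controls inferred from the detection p). A probe entered if 4 or more arrays had it at a detection p under 0.05 (15687 of 45281 did), and a gene's brightest such probe stood for it, also where its probes disagreed. The platform annotation named 34885 probes with 1 symbol, gave 18 several and 10378 none ( 34807 matched a RefSeq GRCm38.p6 table). Promoter motifs were shortened by 1 letter after a first search with longer forms. Groups were compared with limma (lmFit, eBayes, two-sided, no covariate) over all 11559 features with Benjamini-Hochberg adjustment, and single ligands also with an exact permutation test (difference of means, doubled smaller tail). The fit was tested on simulated data. Alternatives were other scalings, filters and probe rules, surgery day as a block, slide, array weights and each array left out.

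The ligands and gene lists were chosen with earlier results of these data known. Named were all 10 ligands with all probes, at most 3 genes of smallest p in each list, genes that were not tested, and the genes most like a ligand. R 4.3.3 with limma 3.58.1 was used for all tests, and Python 3.11.15 for promoters and figures.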

Additional observations from a re-analysis of the deposited data

Results flagged for a closer look

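Cxcl2 in the controls had 1 liver far from the others: control 1 read 6.62 on the log2 scale, while the other controls read 4.84 to 5.02, so that the gap to the nearest liver was 0.902 of the whole range. Of the 18 sets of livers examined (9 ligands in 2 groups) this was 1, and chance alone marks about 5% of such sets. Control 1 was operated on surgery day 5, the day on which the etanercept liver read lower than the control for Cxcl2. Without control 1 the Cxcl2 difference was 2.32 (limma adjusted p = 0.636).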

How the results depend on the processing

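Cxcl1, Cxcl2, Cxcl12 and Ccl4 kept their direction under 20 of 20 alternatives and Ccl5 under the 18 that tested it. The count of ligands past the threshold was 0 except in the authors' values, where it was 3 (Cxcl1 -0.72, Ccl4 -0.81, Ccl7 -0.40); the cause was not tested. Cxcl9 turned to -0.27 with median scaling, which moved the median of all features to -0.26, and to -0.034 with surgery day as a block; its range with each array left out was -0.087 to 0.37. Cxcl10 turned to -0.25 with the day block, to -0.0027 in the authors' values and to -0.018 in those with the block, and ranged from -0.16 to 0.24 with each array left out; 5 alternatives did not test it. Array quality weights, 0.142 for etanercept 4 and 4.92 for etanercept 5, turned Ccl2 to 0.28 and Ccl7 to 0.064; the cause was not tested. Cxcl2 ranged from 0.41 (authors' values with the day block) to 2.81 (array weights) and was 0.96 without background correction, and Cxcl12 was -1.15 with median scaling and -0.28 with the mean of probes. With each array left out it ranged from 1.54 to 2.32, Cxcl12 from -0.83 to -0.53, Ccl4 from -1.88 to -0.87, Ccl5 from 0.51 to 0.95, Cxcl1 from -0.78 to -0.23, Ccl2 from -0.45 to -0.02 and Ccl7 from -0.72 to -0.07. Over all features 1 passed; with median scaling, the mean of probes, slide as a term, the day block, the authors' values with the day block or without surgery day 4 it was 0, with array weights 10, in the authors' values 1072, and 0 to 4 with each array left out. The authors' values with the day block and the fit without day 4 were chosen after seeing the data. The probes of Cxcl2, Cxcl10, Ccl2, Ccl4, Ccl5 and Ccl7 were not detected on every array, so their low values are set by background.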
